A study of Mus musculus with 2 samples.

Results

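The antiviral genes Ifit1, Ifit2, Ifit3, Oasl1, Oasl2, Oas1a, Isg15, Usp18, Rtp4 and Rsad2 were followed across the cell types of the mouse peritoneal cavity, to ask whether they make a low level spread over many cells or a high level in few. All 10 symbols were found, each on 1 row, among the 28692 genes that both count tables list. Droplet single-cell RNA sequencing with 3′ chemistry had been done on peritoneal cavity cells of germ-free C57BL/6 mice. A wild-type (WT) library was set against a library of Xbp1dIEC mice. These mice lack Xbp1, which drives transcription in the unfolded protein response, in intestinal epithelial cells; the Cre driver is not given in the sources used here. Each library pooled equal numbers of cells from 4 male mice aged 10 weeks, and 8700 cells were encapsulated. Both genotypes were germ-free, so neither group carried microbes. The cells sampled lie outside the epithelium, so their Xbp1 counts cannot check the genotype.

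Type I interferons bind a receptor made of Ifnar1 and Ifnar2, and the kinases Jak1 and Tyk2 then activate transcription factors that enter the nucleus and bind interferon-stimulated response elements. Ifit proteins bind viral RNA and curb its translation. Oas enzymes sense double-stranded RNA and make oligoadenylates as a second messenger, while the related Oasl1 lacks that enzymatic activity. Isg15 is a ubiquitin-like protein that is joined to other proteins, Usp18 removes it again and also dampens signalling at Ifnar2, Rsad2 (viperin) makes a nucleotide that stops viral RNA synthesis, and Rtp4 is an interferon-induced chaperone of membrane receptors. A low basal level of such transcripts is known in unchallenged animals, resident macrophages included.

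The 10 genes are annotated as protein coding and lie on 6 chromosomes (GRCm38, GENCODE vM21). The Ifit genes share a stretch of chromosome 19, with Ifit2 at chr19:34550694-34576419, Ifit3 at chr19:34583531-34588731 and Ifit1 at chr19:34640871-34650009. Oasl2 (chr5:114896936-114912234) and Oasl1 (chr5:114923240-114937915) lie side by side, with Oas1a farther along the same chromosome (chr5:120896256-120907521). Isg15 is at chr4:156199424-156200818, Usp18 at chr6:121245906-121270917, Rsad2 at chr12:26442746-26456452 and Rtp4 at chr16:23520291-23614222. Upstream sequence was taken from RefSeq (build GRCm38.p6) as the 250 bases before each listed start; 8 of the 10 genes matched, and Usp18 and Rtp4 had no entry. The core of the interferon-stimulated response element was searched on both strands as 2 copies of GAAA with any 2 bases between them, which read as 2 copies of TTTC on the other strand, and overlapping matches were allowed. In the whole promoter table it was found before 936 of the 27025 genes (3.46%). Among other interferon-stimulated genes it was found before 12 of 26, and among genes that lean to interferon gamma before 7 of 10. Of the 8 antiviral genes 5 had it. The 5 are shown because they share the core although their levels differed by over 10-fold in WT large macrophages, with each match in capitals and the sequence written 5′ to 3′ on the gene's strand.
Ifit1: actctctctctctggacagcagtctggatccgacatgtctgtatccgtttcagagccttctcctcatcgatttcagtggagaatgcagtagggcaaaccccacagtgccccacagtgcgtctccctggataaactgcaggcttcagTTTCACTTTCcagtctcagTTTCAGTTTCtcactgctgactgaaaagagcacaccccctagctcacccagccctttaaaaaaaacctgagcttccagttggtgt
Ifit3: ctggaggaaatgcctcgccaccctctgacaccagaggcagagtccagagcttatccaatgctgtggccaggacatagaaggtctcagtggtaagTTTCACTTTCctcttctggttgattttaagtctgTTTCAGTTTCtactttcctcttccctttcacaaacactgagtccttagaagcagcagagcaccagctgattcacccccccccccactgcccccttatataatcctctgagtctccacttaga
Oas1a: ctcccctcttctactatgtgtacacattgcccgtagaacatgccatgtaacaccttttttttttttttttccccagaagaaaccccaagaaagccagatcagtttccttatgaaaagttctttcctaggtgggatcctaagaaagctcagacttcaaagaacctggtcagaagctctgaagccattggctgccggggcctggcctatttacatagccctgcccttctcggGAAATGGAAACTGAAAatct
Isg15: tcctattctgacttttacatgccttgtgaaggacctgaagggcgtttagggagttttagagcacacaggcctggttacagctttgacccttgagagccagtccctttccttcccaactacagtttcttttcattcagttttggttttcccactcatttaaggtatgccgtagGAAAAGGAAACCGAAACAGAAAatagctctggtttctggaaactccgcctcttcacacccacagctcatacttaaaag
Rsad2: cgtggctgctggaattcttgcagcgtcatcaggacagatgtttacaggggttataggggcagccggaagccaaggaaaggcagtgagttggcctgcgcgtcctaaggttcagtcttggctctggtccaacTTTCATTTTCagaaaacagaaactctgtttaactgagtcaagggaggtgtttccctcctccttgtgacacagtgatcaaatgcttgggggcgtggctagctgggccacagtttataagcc
These stretches are chr19:34640639-34640888 on the plus strand, chr19:34583279-34583528 on the plus strand, chr5:120907526-120907775 on the minus strand, chr4:156200819-156201068 on the minus strand and chr12:26456453-26456702 on the minus strand. Ifit1 and Ifit3 hold the same pair of matches, TTTCACTTTC followed by TTTCAGTTTC. In Ifit1 the nearer one ends 75 bases before the start, and in Ifit3 112 bases before it. Isg15 holds 3 overlapping matches in 1 run, and Oas1a holds 2 that overlap and end 4 bases before the listed start. Rsad2 holds 1. The windows of Oasl1, Oasl2 and both listed starts of Ifit2 held no match of this exact core. A match is a description of the letters only, and no binding was measured.

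The filtered libraries held 6058 WT and 6113 Xbp1dIEC cells. Before filtering, the median was 8324 and 7280 UMIs per barcode (a UMI marks 1 captured transcript molecule). Cells were assigned to a gate by UMIs of marker genes, none of them in the antiviral set. The large macrophage gate held 2509 WT and 2401 Xbp1dIEC cells and carried all 6 markers of large peritoneal macrophages, Gata6 and Timd4 among them. A Folr2-list macrophage gate (UMIs of Folr2, Retnla and Cbr2) held 503 and 470 cells, a Cd209a gate 72 and 73, the B cell gate 1723 and 1923, and the T cell gate 315 and 262. Those markers summed to 5180 and 5465 CPM (UMIs scaled to 1000000 per gate and library) in large macrophages and to 3497 and 3505 CPM in the Folr2-list gate, where class II genes were higher, at 6183 and 5084 CPM. The T cell gate also carried the NK list, at 944 and 1098 CPM. The NK-list gate held 18 and 23 cells, too few to describe, and its class II genes stood at 42565 and 29879 CPM, which goes against its name. The 2 libraries shared 58 barcode sequences. With 1 library per genotype there is no replicate and no test: genotype, pool and library run cannot be told apart, and every 95% interval covers counting error only.

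Macrophages held most of the set's transcripts. The large macrophage gate held 59.7% of all its UMIs in WT and also 59.7% in Xbp1dIEC. Summed over the 10 genes, that gate stood at 163 CPM (158 to 168) for WT and at 111 CPM (106 to 115) for Xbp1dIEC. It was higher in the Folr2-list macrophage gate, at 218 CPM (206 to 231) for WT and 124 CPM (113 to 135) for Xbp1dIEC. The 2 macrophage gates were clearly apart in WT, with a log2 difference of 0.42 (0.33 to 0.51), and barely in Xbp1dIEC, with 0.16 (0.02 to 0.30). The B cell gate was lowest, at 38.6 CPM (35.2 to 42.2) and 24.4 CPM (22.0 to 27.0). The T cell gate lay between, at 70.5 CPM (56.7 to 86.5) and 60.8 CPM (47.0 to 77.4). In the Cd209a gate, whose cells had the highest class II levels, the sum was 126 CPM (97.9 to 159) and 62.5 CPM (43.3 to 87.3). The order was Folr2-list macrophages, large macrophages, Cd209a cells, T cells, B cells in each library. Cd209a cells differed from large macrophages by a log2 difference of -0.37 (-0.74 to -0.04) in WT and -0.81 (-1.36 to -0.34) in Xbp1dIEC, while the intervals of Cd209a and T cells overlapped in Xbp1dIEC. In the NK-list gate 0 of 82369 UMIs came from the set in WT, which allows up to 36.4 CPM, and 3 UMIs in Xbp1dIEC.

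**Figure D1:**
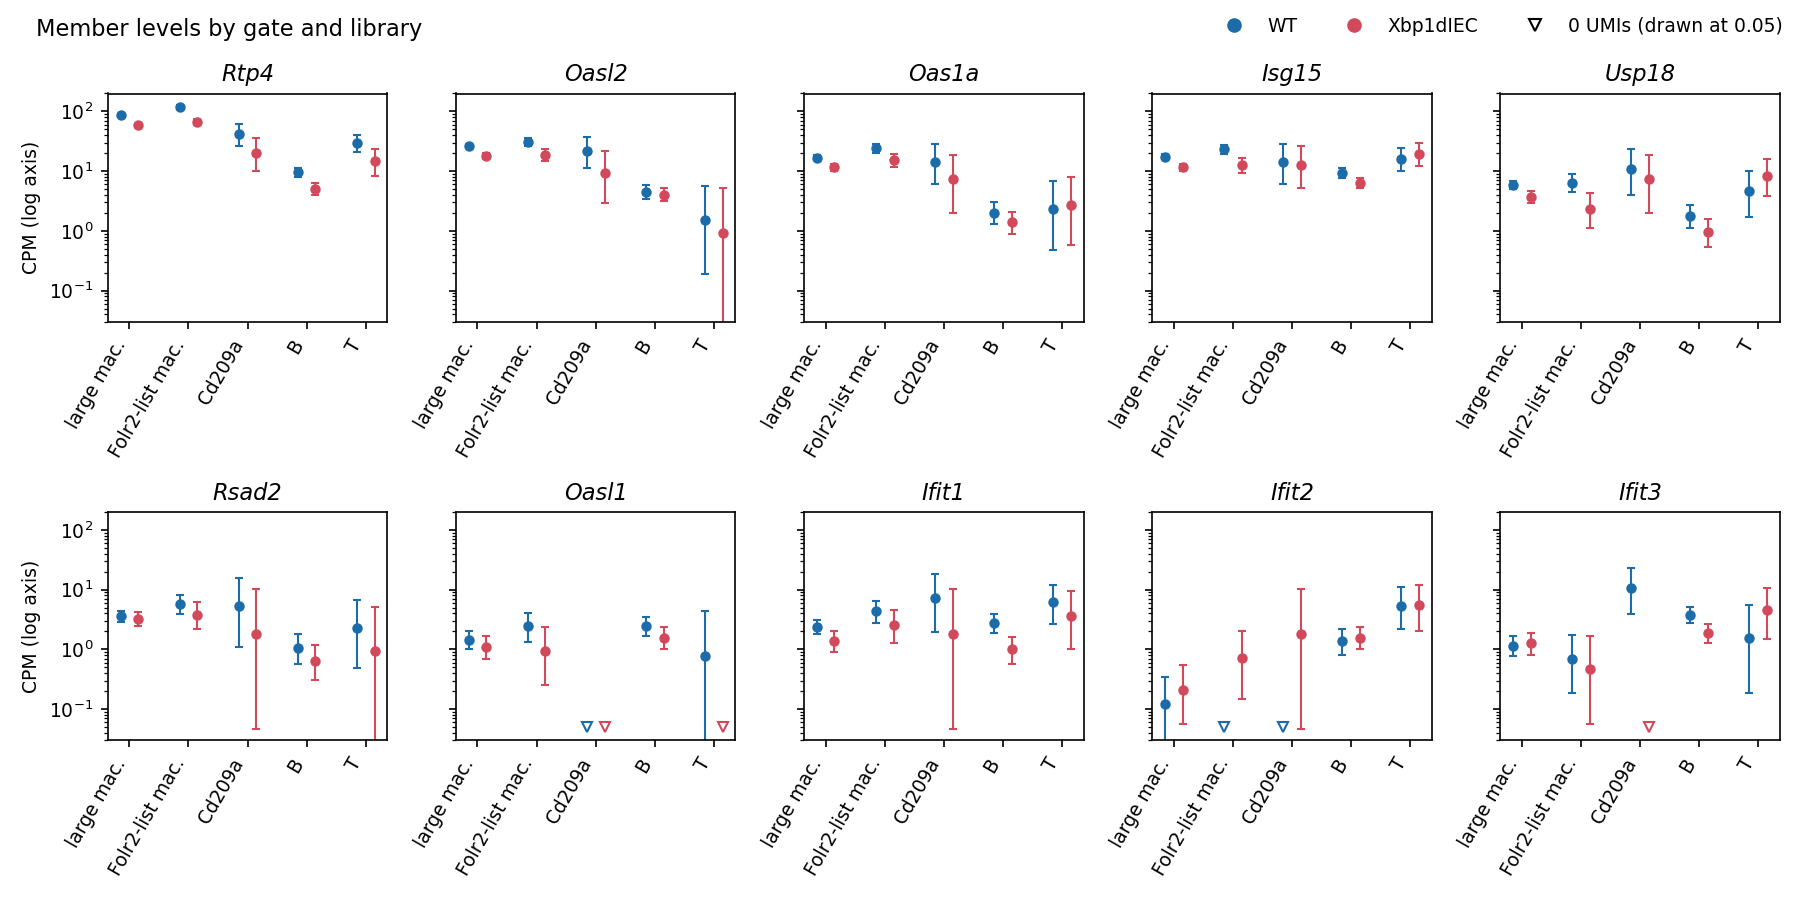
Level of each of the 10 genes in CPM (UMIs scaled to 1000000, log axis) by gate, with WT in blue and Xbp1dIEC in red; bars are exact 95% Poisson intervals, open triangles stand for 0 UMIs. Rtp4, Oasl2 and Oas1a stand far higher in both macrophage gates than in B cells, whereas Ifit2 is higher in B and T cells than in large macrophages.

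The sum hides 2 patterns among the genes. As each transcript is counted once at its 3′ end, levels of different genes were compared without scaling to length. Rtp4 was the most abundant, at 87.6 CPM (83.9 to 91.3) and 58.3 CPM (54.9 to 61.8) in WT and Xbp1dIEC large macrophages, and made up 53.7% and 52.6% of the set's UMIs in these cells when each was brought to 5000 UMIs. In B cells it was 9.50 CPM and 4.99 CPM, a log2 difference from large macrophages of -3.08 (-3.48 to -2.94) in WT and -3.31 (-3.89 to -3.21) in Xbp1dIEC. Oasl2 followed, with 26.5 CPM (24.5 to 28.6) and 18.1 CPM (16.2 to 20.1) in large macrophages and 4.55 CPM and 4.05 CPM in B cells. Oas1a, an oligoadenylate synthetase, had 16.8 CPM (15.2 to 18.5) and 11.7 CPM (10.2 to 13.3) in large macrophages and 2.03 CPM and 1.39 CPM in B cells. These 3 genes thus stood far lower in B cells than in macrophages in each library. Of the 10 genes, 6 were at least 1.5-fold lower in B cells than in large macrophages in both libraries (Oasl2, Oas1a, Isg15, Usp18, Rtp4 and Rsad2), where 23.3% of all measured genes were. Against T cells 3 of 10 were lower (Oasl2, Oas1a and Rtp4), where 26.1% of all measured genes were, so the share among the 10 is near that background. These counts have 1 CPM added to each level. Without it the same 6 were lower in B cells. In T cells 5 of 10 then were, Oasl1 and Rsad2 as well, where 27.7% of all measured genes were. In WT and Xbp1dIEC T cells Oasl1 had only 1 and 0 UMIs, and Rsad2 3 and 1. Their intervals against large macrophages held 0 in both libraries.

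Set against large macrophages, the Ifit genes and Oasl1 did not follow the macrophage pattern. Ifit2 had 3 UMIs among 2509 WT large macrophages (0.12 CPM, 0.02 to 0.35) and 4 UMIs among 2401 Xbp1dIEC ones (0.21 CPM). In B cells it had 17 and 25 UMIs, 1.38 CPM (0.80 to 2.21) and 1.58 CPM (1.02 to 2.33), and in T cells 7 and 6 UMIs, 5.42 CPM (2.18 to 11.2) and 5.53 CPM (2.03 to 12). The intervals of the macrophage level and of both lymphocyte levels do not overlap in either library. With 1 CPM added to each level, 1 of the 10 genes, Ifit2, was at least 1.5-fold higher in B cells than in large macrophages in both libraries, where 19.5% of all measured genes were. With none added Ifit3 passed as well, which made 2 of 10, where 22.8% of all measured genes did; both shares of the set are under the background. Ifit3 was 1.16 CPM and 1.26 CPM in large macrophages and 3.82 CPM (2.80 to 5.08) and 1.90 CPM (1.28 to 2.71) in B cells, higher beyond counting error in WT only, and that difference between the libraries was not tested. Ifit1 had 2.40 CPM and 1.36 CPM in large macrophages, 2.76 CPM and 1.01 CPM in B cells and 6.19 CPM and 3.69 CPM in T cells. In Folr2-list macrophages Ifit1 stood above its B cell level, at 4.33 CPM (2.80 to 6.39) and 2.59 CPM (1.29 to 4.64), with overlapping intervals. Ifit2 and Ifit3 were below their B cell levels in that gate in both libraries, from 0 and 3 UMIs and from 4 and 2 UMIs. Their intervals were apart from those of B cells in WT and overlapped them in Xbp1dIEC. Oasl1 was level with B cells in WT, at 2.43 CPM (1.33 to 4.07) against 2.44 CPM. In Xbp1dIEC Oasl1 was 0.94 CPM (0.26 to 2.42) from 4 UMIs, and its interval overlapped that of B cells. In T cells Ifit1 and Ifit2 were the 2 genes at least 1.5-fold above large macrophages in both libraries, where 18.4% of all measured genes were; the Ifit1 interval held 0 in Xbp1dIEC (log2 difference 0.99, -0.55 to 2.96). Oasl1 was 1.44 CPM and 1.10 CPM in large macrophages and 2.44 CPM and 1.58 CPM in B cells. Reads of Ifit3 and Ifit3b, of Ifit1 and Ifit1bl1, and of Oas1a and Oas1g may be split or lost between near-identical copies, so the levels of these members are uncertain.

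Isg15, the ubiquitin-like tag, and Usp18, which removes it, lay between the 2 patterns. Isg15 was 17.5 CPM (15.9 to 19.2) and 11.6 CPM (10.1 to 13.2) in large macrophages and 16.3 CPM (10.1 to 24.9) and 19.4 CPM (12 to 29.6) in T cells. Usp18 was 5.88 CPM and 3.73 CPM in large macrophages and 4.65 CPM and 8.29 CPM in T cells. Neither gene separated T cells from large macrophages in WT beyond counting error; in Xbp1dIEC the log2 difference was 0.69 (0.02 to 1.39) for Isg15 and 0.98 (-0.03 to 2.16) for Usp18. Rsad2 was 3.56 CPM (2.86 to 4.38) and 3.25 CPM (2.49 to 4.17) in large macrophages and 1.06 CPM and 0.63 CPM in B cells.

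RNA of macrophages also appeared in lymphocyte droplets, and its level stands beside these values. The abundant macrophage transcripts C1qa, C1qb, C1qc, Lyz2 and Cd5l stood at 1.71% to 2.89% of their large macrophage level in B cells and at 1.87% to 4.45% in T cells; Cfp, another macrophage transcript, stood at 6.32% to 7.49%. The set as a whole stood at 23.7% and 22.1% of its macrophage level in B cells and at 43.2% and 55.0% in T cells. The members closest to these carry-over shares were Rtp4 in B cells, at 10.8% and 8.57%, and Oasl2 in T cells, at 5.84% and 5.10% from 2 UMIs and 1 UMI. The part of carry-over in these low levels was not tested. Ifit1 in T cells stood at 258% and 270% of its macrophage level.

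The genotypes were then compared within each gate. In the Xbp1dIEC library the set was lower in both macrophage gates, in Cd209a cells and in B cells, and not separable in T cells. The summed level differed by a log2 ratio (Xbp1dIEC over WT) of -0.56 (-0.64 to -0.48) in large macrophages, -0.81 (-0.97 to -0.67) in Folr2-list macrophages, -1.0 (-1.64 to -0.40) in Cd209a cells and -0.64 (-0.86 to -0.46) in B cells. In T cells it was -0.21 (-0.69 to 0.26). The Xbp1dIEC large macrophages were also shallower, with a median of 7930 UMIs against 9690. The point values have 1 CPM added to each level, which pulls low genes towards 0.

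In large macrophages 8 of the 9 genes with 10 or more UMIs were lower in Xbp1dIEC and 1 was higher, where 60.3% of the 12119 measured genes were lower; the median log2 ratio was -0.52 against -0.05 over all of these. With 1 CPM added, 0 of the 9 passed a 1.5-fold difference, which 2.57% of all genes passed downwards and 0.355% upwards. With none added, 4 of the 9 (Ifit1, Isg15, Usp18 and Rtp4) were 1.5-fold or more lower, where 7.49% of all genes were. The call thus turns on the added CPM, and several ratios lie close to the threshold. With 1 CPM added, the ratios of 6 genes lay close together. The added CPM favours this, as it pulls low genes such as Ifit1 towards 0. Whether the 6 genes share 1 ratio was not tested, and the interval of Ifit1 is wide. The 6 genes were not simply the most abundant, since Ifit1 (2.40 CPM in WT) was below Rsad2 (3.56 CPM). Rtp4 had -0.58 (-0.69 to -0.48), Isg15 -0.55 (-0.83 to -0.36), Usp18 -0.54 (-1.09 to -0.24), Oasl2 -0.53 (-0.75 to -0.36), Ifit1 -0.52 (-1.54 to -0.13) and Oas1a -0.49 (-0.76 to -0.28). For these 6 genes the interval lay below 0. Rsad2 had -0.10 (-0.62 to 0.35), Oasl1 -0.22 (-1.24 to 0.43) and Ifit3 0.06 (-0.73 to 0.95), and counting error alone covers no difference for them. The interval of Rsad2 reaches -0.62 and overlaps the interval of each of the 6 genes, all taken with no CPM added.

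In Folr2-list macrophages all 8 measured genes were lower in Xbp1dIEC, where 61.0% of all genes were, 6 of them by 1.5-fold or more, where 6.81% of all genes were that much lower and 2.6% higher; the median was -0.76 against -0.08 over all genes. Usp18 had the lowest ratio, from 6.41 CPM (4.51 to 8.84) to 2.36 CPM (1.13 to 4.34), a log2 ratio of -1.14 (-2.62 to -0.41). Rtp4 went from 120 CPM (111 to 129) to 66.5 CPM (59.0 to 74.7), a log2 ratio of -0.84 (-1.06 to -0.65), and Isg15 from 23.2 CPM to 12.5 CPM, -0.84 (-1.38 to -0.42). The intervals of Ifit1, Oasl1 and Rsad2 held 0. Of 5 genes measured in Cd209a cells, all 5 were lower, where 57.6% of all genes were, and 3 by 1.5-fold or more, but in this small gate 19.4% of all genes were that much lower and 10.5% higher, the median of all genes there was -0.12, and the interval of each of the 5 held 0.

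In B cells 9 of 10 genes were lower in Xbp1dIEC, where 54.6% of all genes were, with a median of -0.45 against -0.03. With 1 CPM added 3 of them were 1.5-fold or more lower, where 2.26% of all genes were that much lower and 2.19% higher; with none added 6 were, where 6.15% of all genes were. The 3 were Ifit1, from 2.76 CPM to 1.01 CPM (log2 ratio -0.90, -2.41 to -0.55), Rtp4, from 9.50 CPM to 4.99 CPM (-0.81, -1.36 to -0.50), and Ifit3, from 3.82 CPM to 1.90 CPM (-0.73, -1.72 to -0.32). Ifit2 was the exception, at 0.12 (-0.75 to 1.18). In T cells 2 of 5 measured genes were 1.5-fold lower, where 9.79% of all genes were, and 1 was that much higher, where 9.62% were. Rtp4 was lower there, from 29.4 CPM (20.8 to 40.4) to 14.7 CPM (8.43 to 23.9), a log2 ratio of -0.95 (-1.94 to -0.12), and it was lower in each of the 5 gates, though in Cd209a cells its interval held 0 (-0.99, -2.21 to 0.07). Usp18 in T cells, at 0.72 (-0.82 to 2.61), and Isg15, at 0.24 (-0.69 to 1.2), were not separable from 0.

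**Figure D2:**
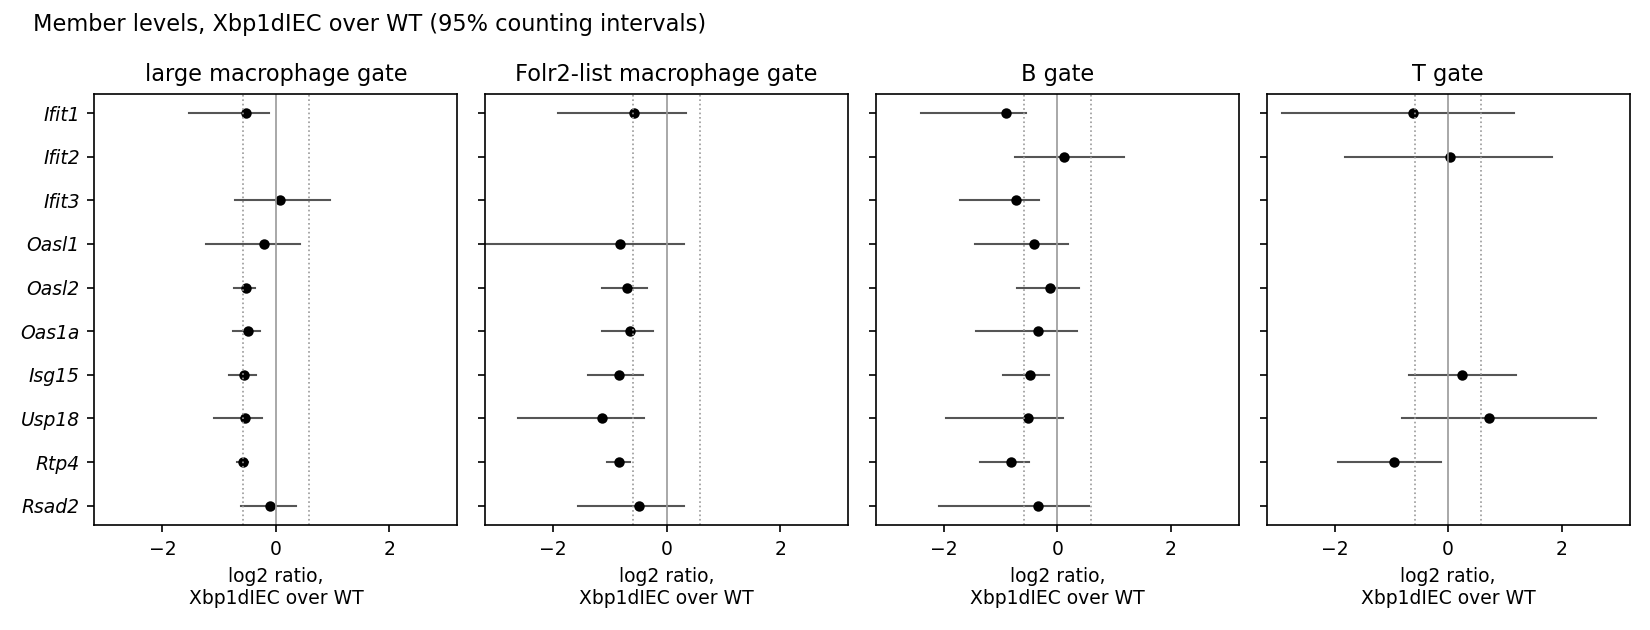
Log2 ratio of Xbp1dIEC over WT for each gene with 10 or more UMIs, in 4 gates; points have 1 CPM added, lines are exact conditional binomial 95% intervals of the counts, and dotted lines mark a 1.5-fold difference. In large macrophages 8 of 9 points lie below 0 and in Folr2-list macrophages all 8 do, whereas the T cell points lie on both sides.

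The spread over cells was measured next. Cells were thinned, that is a random 2000 of each cell's UMIs were kept, so that depth did not differ between cells. In large macrophages 23.0% of WT cells (21.4 to 24.7) and 15.7% of Xbp1dIEC cells (14.3 to 17.2) then had a UMI of at least 1 of the 10 genes; without thinning the shares were 58.1% and 36.5%. In B cells they were 7.20% (6.02 to 8.52) and 4.68% (3.78 to 5.72). Cells with 3 or more of the genes were rare, 12 of 2509 in WT (0.478%, 0.247 to 0.834) and 13 of 2401 in Xbp1dIEC (0.541%, 0.289 to 0.924). The product of the single-gene shares gives 0.126% and 0.0368%, so such cells were more frequent than independent detection gives, in both libraries. Between the libraries the intervals overlapped, and the order of the 2 shares was the other way at 5000 UMIs. Over all cells kept, 24 WT and 16 Xbp1dIEC cells had 3 or more genes.

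At 2000 UMIs most low genes were missed, so cells were also thinned to 5000 UMIs, a depth chosen after the data were seen, which left out 228 WT and 412 Xbp1dIEC large macrophages. The share of large macrophages with none of the 10 genes was 56.0% of 2281 in WT and 70.5% of 1989 in Xbp1dIEC. Those with 3 or more were 79 in WT (3.46%, 2.75 to 4.30) and 47 in Xbp1dIEC (2.36%, 1.74 to 3.13), where the product of shares gives 1.30% and 0.42%. Cells with 4 genes numbered 9 and 11, and those with 5 or more 9 and 4. Cells with 1 or 2 genes numbered 925 and 540. Cells with 3 or more genes held 20.8% of the set's UMIs in WT and 22.1% in Xbp1dIEC, so most of its UMIs lay in cells with 1 or 2 of the genes. In Folr2-list macrophages 49.4% of 482 WT cells and 69.0% of 423 Xbp1dIEC cells had none, and 32 (6.64%) and 21 (4.96%) had 3 or more.

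**Figure D3:**
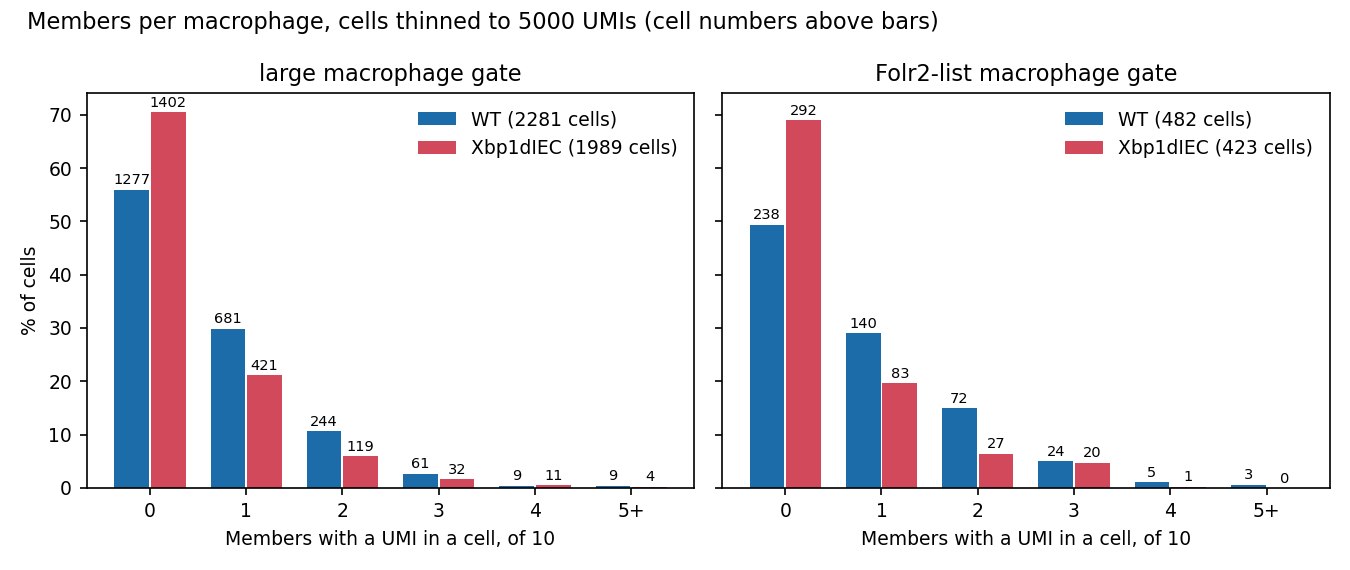
Share of macrophages (%, bars from 0) by how many of the 10 genes had a UMI, each cell thinned to 5000 UMIs, WT in blue and Xbp1dIEC in red, with cell numbers above the bars. In large macrophages 1277 WT and 1402 Xbp1dIEC cells had none, and 79 and 47 had 3 or more.

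The genes were detected together more often than independent detection gives. Among pairs for which independent detection gives 5 or more large macrophages, 10 of 10 pairs in WT and 8 of 8 in Xbp1dIEC were seen in more cells than that, by 1.23 to 2.89 times and by 1.39 to 2.82 times. Oasl2 and Rtp4 were found together in 135 WT cells, where 79.3 are given by their shares, and in 70 Xbp1dIEC cells, where 27.3 are given. Oas1a and Isg15 made the weakest such pair in both libraries, with 16 cells against 13.0 and 7 against 5.02.

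Each abundant gene was more frequent in cells that carried other members. Rtp4 had a UMI in 23.6% of WT cells with none of the other 9 genes (21.6 to 25.7) and in 59.4% of cells with 2 or more of them (50.3 to 68.0). In Xbp1dIEC the shares were 13.9% (12.2 to 15.7) and 61.4% (49.0 to 72.8). Cells with 2 or more other genes therefore carried Rtp4 about as often in both libraries, while cells with none carried it less often in Xbp1dIEC, with intervals that do not overlap. Oasl2 behaved alike, with 7.46% and 28.4% in WT and 4.17% and 31.6% in Xbp1dIEC. Oas1a showed the smallest contrast, from 5.90% (4.70 to 7.28) to 12% (8.31 to 16.6) in WT and from 3.44% to 9.09% in Xbp1dIEC. Rsad2 went from 0.777% to 4.55% in WT and from 0.778% to 8.23% in Xbp1dIEC.

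**Figure D4:**
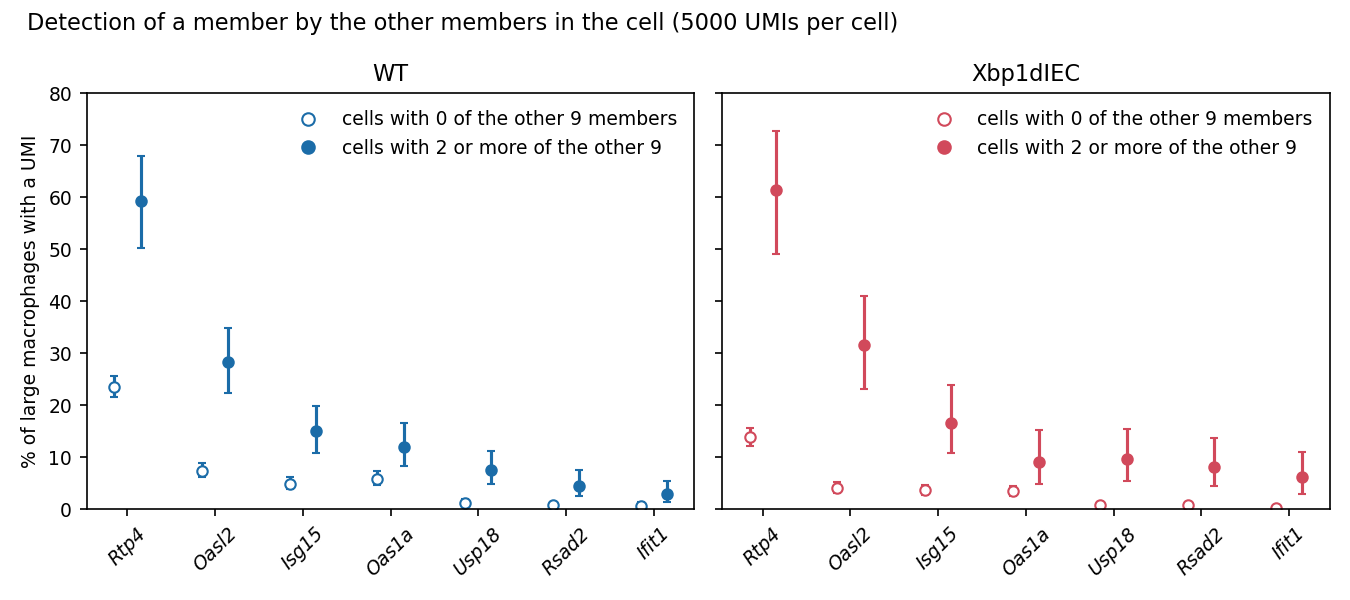
Share of large macrophages (%, at 5000 UMIs per cell) with a UMI of each gene, in cells with none of the other 9 genes (open) and with 2 or more of them (filled); bars are exact 95% Clopper-Pearson intervals. Rtp4 goes from 23.6% to 59.4% in WT and from 13.9% to 61.4% in Xbp1dIEC, and Oas1a changes least of the 4 most abundant genes.

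The variance of UMIs per cell divided by their mean, which is 1 for random counting, set the genes apart as well. At 5000 UMIs, 8.06% of all measured genes in WT and 7.02% in Xbp1dIEC reached 1.2, and the median gene was at 1.02. Rtp4 was at 1.61 and 1.80, and Oasl2 at 1.26 and 1.31. Isg15 was at 1.67 in WT and 1.13 in Xbp1dIEC, and its highest cell held 9 UMIs in WT and 2 in Xbp1dIEC. Rsad2, with under 50 UMIs in each library and so outside that background, was at 2.04 and 1.43. In WT part of this came from 1 cell: without the cell with most members Rsad2 was at 1.22, Isg15 at 1.34 and Oasl2 at 1.17, while Rtp4 kept 1.61. Oas1a stayed near random counting with all cells, at 1.05 and 1.03 in WT and Xbp1dIEC, although its level was close to that of Isg15.

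The single cells with the most members show the upper end. Without thinning, the highest WT large macrophage had 9 of the 10 genes and 38 UMIs of them among 6631, with 12 of Isg15, 9 of Oasl2, 8 of Rsad2 and 3 of Ifit3. The highest Xbp1dIEC one had 8 genes and 34 UMIs among 14504, with 10 of Rtp4, 8 of Isg15 and 7 of Rsad2. The next by number of genes had 17 and 13 UMIs of the set, well below both. In the B cell gate the WT cell with most genes had 6 genes and 22 UMIs of the set among 22735. Isg15 made 9 of the 22, Ifit3 5 and Ifit1 3, with none of Oasl2 or Oas1a. The Xbp1dIEC B cell with most genes had 5 genes and 6 UMIs among 31245, and the next had 4 genes and 8 UMIs among 9866. The median depth of the B cell gate was 5808 UMIs in WT and 6733 in Xbp1dIEC. The part of depth in these numbers of genes was not tested. Neither Isg15-rich macrophage had a UMI of Ifit2.

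Cells with 3 or more members were then compared with cells that had none, among large macrophages at 5000 UMIs. The 12 genes with the highest ratio in the library where it was lower were Ms4a4c, Plac8, Slfn1, Irf7, Oas3, Pyhin1, Irgm1, Slfn5, Ifi47, Xaf1, Sirpb1c and Igtp, and 7 of the 12 stand in the interferon gene lists used here, as do 43 of the 3125 genes ranked (1.38%). The lists were chosen with earlier results of these data known. Irf7, the factor that amplifies the interferon response, had a UMI in 40.5% of the 79 WT cells (29.6 to 52.2) and 8.38% of the 1277 without members, and in 42.6% and 5.35% in Xbp1dIEC. Slfn1, a schlafen family gene, had 41.8% and 8.61% in WT and 61.7% and 7.77% in Xbp1dIEC. Ifi27l2a, an abundant interferon-induced gene, had a median of 8 UMIs in cells with 3 or more members in each library, against 2 in WT and 0 in Xbp1dIEC cells without. These 3 genes were thus higher over many of the cells. Plac8 and Ms4a4c were not, since 3 cells held 88.7% of the Plac8 UMIs in WT and 97.2% in Xbp1dIEC.

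The cells with 3 or more members carried the markers of large macrophages at a like level. Large macrophage markers summed to 4881 CPM against 5200 CPM in cells without members in WT and to 5498 CPM against 5508 CPM in Xbp1dIEC. B cell list genes were 58.2 CPM against 63.1 CPM and 29.8 CPM against 46.1 CPM, and the median depth before thinning was 10203 against 9952 UMIs and 9093 against 8334 UMIs. Class II genes were higher, 3590 CPM against 1369 CPM in WT and 3626 CPM against 1177 CPM in Xbp1dIEC, but 3 cells held 80.3% and 92.7% of those UMIs, and the median cell had 2 UMIs in both WT groups and 1 against 2 in Xbp1dIEC. Cell cycle genes were 83.5 CPM against 426 CPM in WT and 209 CPM against 170 CPM in Xbp1dIEC. Their part in the result was not tested; without cycling cells the summed log2 ratio in large macrophages was -0.63.

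Genes that make, sense and carry the interferon signal were compared in the same gates. No UMI of Ifnb1, Ifna1, Ifna2, Ifna4, Ifna5, Ifne, Ifnl2 or Ifnl3 was found in either library, and Ifng had 5 and 6 UMIs. All 7 receptor and kinase genes were measured in large macrophages, 4 lower and 3 higher with a median log2 ratio of -0.03. Ifnar2 was 102 CPM and 95.9 CPM, a log2 ratio of -0.08 (-0.17 to 0.00), and Jak1 86.6 CPM in WT and 85.0 CPM in Xbp1dIEC. The median of the receptor side in large macrophages was thus near 0 where that of the 10 genes was -0.52. Ifngr2 was lower there, with a log2 ratio of -0.18 (-0.31 to -0.07). Of 8 transcription factor genes 7 were lower, where 60.3% of all genes were, and none by 1.5-fold, with a median of -0.18; Irf7, itself interferon-induced, was 31.7 CPM and 21.6 CPM, -0.53 (-0.73 to -0.38). Among RNA sensors and effectors 7 of 9 were lower, with Zbp1 at -0.38 (-0.55 to -0.24) and Eif2ak2, the kinase PKR, at -0.39 (-0.60 to -0.22). The contrast was weaker in B cells, where 6 of the 7 receptor and kinase genes were lower and 1 was higher. Their median there was -0.15 and that of the transcription factors -0.38, beside -0.45 for the set. In Folr2-list macrophages these medians were 0.02 and -0.29, beside -0.76 for the set.

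Other interferon-stimulated genes leaned the same way as the set in macrophages. Of 30 measured in large macrophages 28 were lower in Xbp1dIEC, where 60.3% of all genes were, and 3 by 1.5-fold or more, where 2.57% were, with a median of -0.35 against -0.05; Mx2 was not analysed here. Ifi27l2a went from 845 CPM to 551 CPM (log2 ratio -0.62, -0.65 to -0.58), Bst2, which tethers virus particles, from 186 CPM to 143 CPM (-0.37, -0.44 to -0.30), and Ifitm3, which blocks virus entry, from 2612 CPM to 2218 CPM (-0.24, -0.25 to -0.22). In Folr2-list macrophages 27 of 29 were lower, where 61.0% of all genes were, and 5 by 1.5-fold or more, where 6.81% were, with a median of -0.46 against -0.08; Oas2 was 14.0 CPM and 6.37 CPM. In B cells 25 of 30 were lower, where 54.6% of all genes were, with a median of -0.19 against -0.03. The set's median was the lower one in each of these gates, and that difference was not tested.

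The Isg15 conjugation genes and the genes that lean to interferon gamma did not share 1 direction. In B cells Ube2l6, the enzyme that carries Isg15 to its targets, was 10.3 CPM and 4.61 CPM, a log2 ratio of -1.01 (-1.60 to -0.73), and in Folr2-list macrophages 22.0 CPM and 11.1 CPM, -0.93 (-1.50 to -0.50). In large macrophages it was -0.14 (-0.39 to 0.09), and Uba7, the activating enzyme, was 0.22 (0.06 to 0.40). Gbp7, a guanylate-binding protein, was higher in Xbp1dIEC B cells, 46.0 CPM and 112 CPM, 1.27 (1.15 to 1.42), with Gbp3 at 0.53 (0.39 to 0.68) and Gbp2 at 0.48 (0.30 to 0.70), while Psmb8, an immunoproteasome subunit of the same list, was lower at -0.31 (-0.36 to -0.26). Of the 9 measured genes of that list 5 were lower and 4 higher in B cells, with a median of -0.01. In large macrophages 9 of 10 were lower, where 60.3% of all genes were, with a median of -0.17. In B cells Gbp2, Gbp3 and Gbp7 were thus higher in Xbp1dIEC where Ifit1, Ifit3 and Rtp4 were lower.

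Genes whose level over the 12 combinations of gate and library was most like the mean of the set were Lims1, H1f0, Zbtb16, Gstk1, March5, Mrps18a, Ndufb3, 2310009B15Rik, Oas3 and Pxmp2, with Pearson's r from 0.96 down to 0.93 among 9844 genes. The points share libraries and gates, and r is given as a description. Leaving out the NK-list gate replaced 9 of the 10, with Hprt, Irf7 and Sdhc leading and Lims1 alone in both rankings. In that ranking Rsad2, Rtp4 and Oas1a followed the set's mean at 0.95, 0.94 and 0.93. Ifit3 and Oasl1 hardly followed it, at 0.06 and 0.02, and Ifit2 ran against it at -0.54. Each member is itself part of that mean, so a high r of a member is partly built in.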

How the data were processed

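The authors deposited counts: whole numbers of UMIs for each gene in each barcode, not normalized. The submitters' processing notes list mm10 as the build, with Seurat 2.3.0 and Cell Ranger 2.2.0 as tools; the annotation is not given in the sources used here. The files held 6204 WT barcodes with 56229330 UMIs and 6246 Xbp1dIEC barcodes with 49703442 UMIs. A barcode was kept with at least 500 UMIs, at least 200 genes and a mitochondrial share under 10%. Doublets were called per library with scrublet in scanpy 1.11.5 (expected rate 5%), which removed 140 WT (2.26%) and 113 Xbp1dIEC barcodes (1.81%). Gates asked for a minimum of summed marker UMIs, read off histograms of those sums: 4 for macrophage, T and NK lists, 10 for the Folr2 list, 3 for Cd209a and 6 for B cells. Cells with markers of 2 lineages (565 and 358) or none (353 and 603) were left out. The members and gene lists were chosen with earlier results of these data known.

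Levels are CPM of the UMIs summed over a gate, with an exact Poisson interval. Log2 ratios had 1 CPM added, their conditional binomial intervals none; genes with 10 or more UMIs were measured. Shares have Clopper-Pearson intervals. All are 95% intervals. With 1 library per genotype no p-value was computed. The scripts were tested on simulated data. All 10 members were counted in every gate, but several comparisons name only a part of them. From each pathway list at most the 4 genes with most UMIs were named by rule; Irf7, Oas2 and single cells beyond that were chosen after their values were seen. Likeness used Pearson's r of log2(CPM + 10) over genes with 200 or more UMIs. Genes of the cells with 3 or more members needed 20 or more UMIs in those cells. At 2000 UMIs per cell, with 50 or more UMIs asked, Ifi27l2a led and 2 of 12 genes stood in the lists. Only 2 of all 164 genes ranked at that depth stood in the lists (1.22%). Computation used Python 3.11.15, numpy 2.4.6 and scipy 1.17.1.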

Additional observations from a re-analysis of the deposited data

How the results depend on the processing

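No paired analysis was possible because each genotype has 1 library. Outside T cells no summed level and no median log2 ratio changed sign under the alternatives run. In T cells, where the sum was not separable from 0, it was 0.16 without Rtp4, and the median was -0.19 with no minimum of UMIs and -0.36 with a minimum of 30. The summed log2 ratio in large macrophages ranged from -0.64, as the mean of per-cell CPM, to -0.50, with CPM taken without immunoglobulin, mitochondrial and ribosomal genes; it was -0.55 in cells under 5% mitochondrial share, -0.63 without the 1% of cells with most member UMIs and -0.52 without Rtp4. The median ratio in large macrophages was -0.60 without cycling cells and -0.56 without that 1% of cells. Adding 10 CPM put the median at -0.21 in large macrophages, -0.43 in Folr2-list macrophages and -0.10 in B cells, since most members lie under 10 CPM in B cells. With no CPM added, chosen after seeing the data, the count of members 1.5-fold lower in Xbp1dIEC went from 0 to 4 in large macrophages, from 6 to 8 in Folr2-list macrophages and from 3 to 6 in B cells. Asking for 2 times the marker UMIs put the median of Cd209a cells at -1.59, over 3 members.

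The share of cells with 3 or more members depends on depth by construction, and is given for WT and then Xbp1dIEC. In large macrophages it was 0.478% and 0.541% with overlapping intervals, and WT was the higher one at the other depths and member minimums below, without cycling cells and with another seed. At 1000 UMIs per cell it was 0.199% and 0.125% in large macrophages, 0.199% and 0 in Folr2-list macrophages, 0 in Xbp1dIEC Cd209a cells, 0 in Xbp1dIEC B cells and 0 in WT T cells. At 5000 UMIs, chosen after seeing the data, it was 3.46% and 2.36% in large and 6.64% and 4.96% in Folr2-list macrophages. Not thinned, it was 10.7% and 5.29% in large macrophages, 17.7% and 8.51% in Folr2-list macrophages, 8.33% in WT Cd209a cells and 1.10% and 0.520% in B cells. Asking for 2 or more members gave 4.66% and 2.37% in large macrophages, 6.36% and 2.55% in Folr2-list macrophages and 0.813% and 0.312% in B cells. Asking for 4 or more gave 0.120% and 0 in large macrophages, 0 in Xbp1dIEC Folr2-list macrophages, 0 in Cd209a cells of both libraries and 0 in WT T cells. Another seed gave 0 in Xbp1dIEC Folr2-list macrophages and Cd209a cells, and 2 times the marker UMIs gave 0 in WT Cd209a cells, where 1 cell had made the share.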
